A study of Mus musculus with 12 samples.

Results

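Blood vessels are wrapped by mural cells. Smooth muscle cells surround arteries and the larger veins and contract by means of a dedicated set of actin, myosin and actin-binding proteins, whereas pericytes sit on capillaries inside the basement membrane, where endothelial cells hold them through the growth factor Pdgfb and its receptor Pdgfrb. Pericytes are recognised by receptors, ion channels and signalling regulators more than by contractile proteins, and in the lung they share many transcripts with the fibroblasts of the alveolar wall. The transcripts described here are 10 mural genes among 18193 genes measured in sorted lung endothelial cells (ECs). They were taken by name as markers of a cell type, 4 of smooth muscle (Acta2, Tagln, Myh11 and Des) and 6 of pericytes (Pdgfrb, Abcc9, Kcnj8, Cspg4, Notch3 and Rgs5), and each was read by its probe set of highest mean signal.

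Lung ECs came from female NSG mice, an immunodeficient strain, aged 6 to 8 weeks at injection of MDA-MB-231-LM2 cells, a lung-metastatic derivative of the human breast cancer line MDA-MB-231, into the tail vein. Lungs were taken at week 1, 2 or 3 after injection, age-matched healthy NSG mice served as control, and each of the 4 groups has 3 arrays of separate biological replicates. CD31+ cells were sorted after removal of cells positive for CD45, CD11b, EpCAM, CD140a, CD140b or the GFP of the cancer cells, so the sort was meant to discard cells bearing the proteins of Pdgfra (CD140a) and Pdgfrb (CD140b). RNA was hybridised to Affymetrix Mouse Genome 430 2.0 arrays, on which a gene is read by 1 or more probe sets, and all values below are log2 signals, so that a difference of 1 is a doubling.

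The sorted cells gave signal for endothelial genes. Pecam1, the gene of CD31, read 13.40 to 13.53 on all 12 arrays, where the highest value of any probe set was 13.99. None of 11 pan-endothelial genes passed the test (limma, adjusted p below 0.05) at any week against control, with the list's mean shift on single arrays between 0.04 and 0.12. Over all genes, only 2 passed as higher and 7 as lower at week 1, 19 and 25 at week 2, and 433 and 479 at week 3. Not passing therefore says little, most of all at weeks 1 and 2. Emcn differed most, by 0.65 at week 3 (adjusted p = 0.057), with every week 3 array above every control array. Transcripts of other cells were present as well. Sftpc, the surfactant protein of alveolar type II cells, read 13.50 to 13.54 in control, and Pdgfra, of fibroblasts, 11.82 to 11.99. The 10 mural genes each read above the median of all probe sets (8.13) in at least 3 arrays, Abcc9 only in the 3 control arrays. In control, 8 of them were above it on every array, and their control means ran from 8.42 for Des to 11.42 for Tagln. Signals of different probe sets are not on a common scale, so levels are compared below only within a probe set.

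Most of the mural genes were lower in ECs from metastatic lungs at each week, and most of these differences did not pass the test after adjustment over all probe sets. At week 1, all 10 were below control, with log2 differences of −0.12 to −1.67, and 0 passed limma's test at an adjusted p below 0.05, although 7 had an unadjusted p below 0.05. Over all genes, 0.0385% were called lower in that comparison, and 5.24% were lower at an unadjusted p below 0.05. In 7 of the 10 (Acta2, Tagln, Myh11, Abcc9, Kcnj8, Cspg4 and Pdgfrb) every week 1 array lay below every control array, against 6.93% of all genes. At week 2, Acta2 and Abcc9 were called lower, 2 of 10 against 0.137% of all genes, and 6 of 10 (Acta2, Myh11, Des, Abcc9, Kcnj8 and Pdgfrb) did not overlap control, against 7.15%. At week 3, Myh11 and Abcc9 were called lower, 2 of 10 against 2.63% of all genes, and 4 of 10 (Acta2, Myh11, Abcc9 and Pdgfrb) lay wholly below control, against 12.7%. In these bulk samples, fewer mural cells and less of a transcript per cell cannot be told apart.

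**Figure D1:**
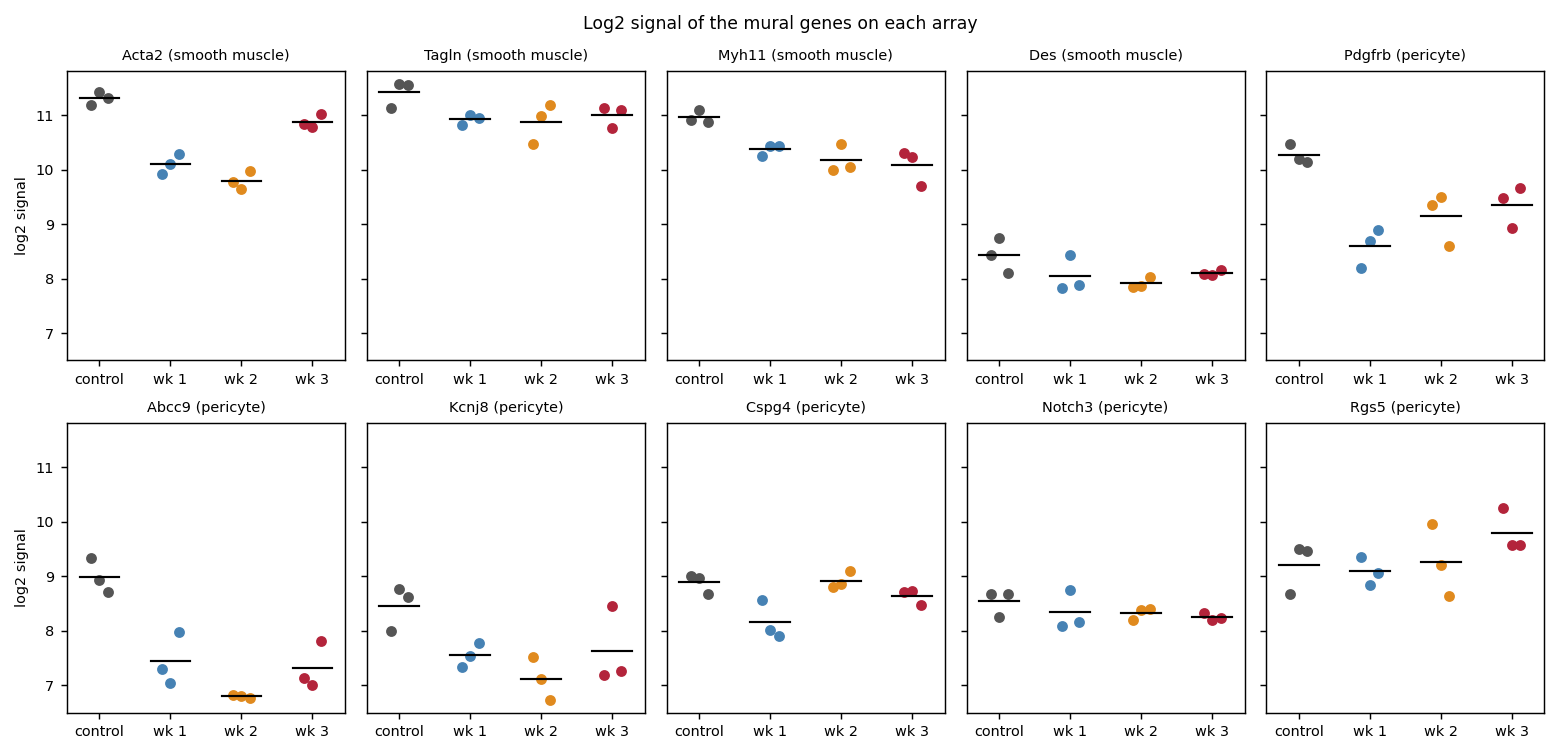
Log2 signal (vertical axis) of each mural gene on the 12 arrays, by group (horizontal axis; wk, week after injection); points are arrays and bars group means. Acta2 lies between 9.65 and 10.28 at weeks 1 and 2, below its control values of 11.19 to 11.43, and at 10.78 to 11.02 at week 3, whereas the week 3 arrays of Rgs5 lie above control.

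Among the smooth muscle genes, Acta2 gave the largest difference and the only significant change between metastatic stages. Acta2 encodes smooth muscle α-actin, the main thin-filament protein of vascular smooth muscle. Its log2 signal was 11.19, 11.43 and 11.31 in control, 9.92, 10.10 and 10.28 at week 1, 9.77, 9.65 and 9.97 at week 2, and 10.83, 10.78 and 11.02 at week 3. Weeks 1 and 2 overlap each other and lie below both control and week 3, and week 3 lies between them and control without touching either. Against control, Acta2 was 2.31-fold lower at week 1 (log2 −1.21, SE 0.14, adjusted p = 0.053) and 2.85-fold lower at week 2 (log2 −1.51, SE 0.13, adjusted p = 0.022), and at week 3 the difference was −0.44 (SE 0.12, adjusted p = 0.10). From week 2 to week 3, Acta2 rose by 1.08 on the log2 scale (SE 0.13, adjusted p = 0.019), a 2.11-fold difference. This was 1 of 10 mural genes called higher, against 1.35% of all genes.

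The rise of Acta2 to week 3 rests on 1 probe set. That probe set is of the kind whose probes can match transcripts of more than one gene, such as a second actin. Both of the other probe sets of Acta2 read below the median signal of the arrays throughout (6.45 to 7.44) and differed from control by −0.12 to −0.25 over the 3 weeks. From week 2 to week 3 they differed by 0.10 and −0.11, not past the test, so neither showed the rise. Leaving out single arrays kept the direction, with a rise of 1.00 to 1.16, but the call was kept in 1 of 6 such fits (adjusted p 0.047 to 0.077), the one without week 3 replicate 2. The week 2 difference from control was likewise called in 1 of 6 fits, that without week 2 replicate 2 (−1.44 to −1.60, adjusted p 0.046 to 0.14).

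The promoter of Acta2 is known for paired CArG elements, to which serum response factor binds to drive contractile genes. They are shown because Acta2 was the mural gene called between stages. Whether the elements bear on that change was not tested. RefSeq's promoters on GRCm38.p6 were used. Results are given for 7 of the 10 genes, and none are given for Tagln, Myh11 and Pdgfrb. The 250 bases before each start were searched on both strands for the strict CArG box (CC, a run of A and T, GG). A CArG-like element that allows 1 G or C inside the run was also sought. So was GTGGGAA, the core bound by RBPJ, the DNA-binding partner of Notch. The strict box was in 0 of the 7, and in 1.47% of the 32851 promoters of the table. CArG-like elements were in 1 of the 7, Acta2, against 8.59% of all promoters, and Acta2 held 2 of them, as did 0.67% of promoters with 2 or more. Because Acta2 was already known for such elements, finding them there was no test. GTGGGAA was in 0 of the 7, against 5.42% of promoters. Both Acta2 elements are on chromosome 19, minus strand, and are printed 5′ to 3′ with the element in capitals. The distal one, in chr19:34255438-34255467, lies 84 to 75 bases before the start, and the proximal one, in chr19:34255388-34255417, 34 to 25 bases before it, counted from the start that the table uses, which lies inside the annotated span of the gene (to base 34255585).
Acta2 distal element: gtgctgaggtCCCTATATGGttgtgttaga
Acta2 proximal element: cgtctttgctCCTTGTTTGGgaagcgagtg

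The 3 other smooth muscle genes differed less from control than Acta2 did at weeks 1 and 2. Myh11, the smooth muscle myosin heavy chain and the most restricted marker of the lineage, had log2 signals of 10.91, 11.10 and 10.87 in control, 10.25, 10.43 and 10.44 at week 1, 9.99, 10.48 and 10.05 at week 2, and 10.30, 10.24 and 9.70 at week 3. Every array from metastatic lungs lay below every control array, and the 3 stages overlapped each other. The difference from control was −0.59 at week 1 (SE 0.13, adjusted p = 0.16), −0.79 at week 2 (SE 0.15, adjusted p = 0.14) and −0.88 at week 3 (SE 0.18, adjusted p = 0.042). Only the last was called, and leaving out any single array ended that call (adjusted p 0.059 to 0.13). A dimmer probe set of Myh11, at 7.23 to 8.28, differed from control by −0.25 at week 3 (SE 0.24).

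Tagln, which encodes the actin-binding protein transgelin (SM22α), read 11.12, 11.57 and 11.56 in control, 10.81, 11.00 and 10.95 at week 1, 10.47, 10.99 and 11.18 at week 2, and 11.14, 10.77 and 11.10 at week 3. Only week 1 lay wholly below control, and the differences of −0.50, −0.54 and −0.42 (SE 0.16 to 0.21) did not pass the test, with adjusted p from 0.22 to 0.43. Des encodes desmin, the intermediate filament of muscle that pericytes also make. Its log2 signal was 8.43, 8.74 and 8.10 in control, 7.82, 8.44 and 7.88 at week 1, 7.85, 7.87 and 8.03 at week 2, and 8.09, 8.06 and 8.15 at week 3, with differences from control of −0.38, −0.51 and −0.33 that did not pass the test. A second probe set of Des read 8.43, 7.95 and 6.98 in control and 6.27, 6.26 and 6.30 at week 3, a difference of −1.51 (SE 0.33, adjusted p = 0.053), so the 2 probe sets of Des differ in size at that stage. From week 2 to week 3, Tagln differed by 0.12, Myh11 by −0.09 and Des by 0.18, none past the test. The week 3 arrays of Des (8.06 to 8.15) lay above those of week 2 (7.85 to 8.03), as those of Acta2 did, and those of Tagln and Myh11 overlapped them. The share of all genes whose arrays separate between stages, or lie wholly above control, is not given here, so such separations are description only.

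Abcc9 was the furthest below control among the pericyte genes at weeks 2 and 3, and the only one called there. At week 1 Pdgfrb was lower by more. Abcc9 encodes SUR2, the regulatory subunit of the ATP-sensitive potassium channel of pericytes and vascular smooth muscle. Its log2 signal was 9.33, 8.94 and 8.71 in control, 7.31, 7.04 and 7.97 at week 1, 6.82, 6.80 and 6.77 at week 2, and 7.13, 7.01 and 7.81 at week 3. No array from a metastatic lung reached the lowest control array, and week 2 lay below both other stages. All 9 of these arrays were below the median signal of 8.13, and whether they were above background was not tested, so the folds that follow are those of the signals as given. Abcc9 was 2.94-fold lower than control at week 1 (log2 −1.55, SE 0.26, adjusted p = 0.082), 4.58-fold lower at week 2 (log2 −2.20, SE 0.16, adjusted p = 0.021) and 3.19-fold lower at week 3 (log2 −1.68, SE 0.25, adjusted p = 0.016). Week 2 and week 1 differed by −0.64 (adjusted p = 0.61) and week 3 and week 2 by 0.52 (adjusted p = 0.27). At week 3, all 3 probe sets of Abcc9 were called lower, the other 2 with log2 differences of −1.06 (SE 0.16, adjusted p = 0.015) and −0.91 (SE 0.13, adjusted p = 0.014), and at week 2 one of these was called (−1.15, SE 0.13, adjusted p = 0.040) and the other was not (−0.66, SE 0.13, adjusted p = 0.14). Both are dimmer. The probe set with −1.06 was above the median signal on 1 of 12 arrays and that with −0.91 on 0, and whether they were above background was not tested. With single arrays left out, the week 2 call of Abcc9 was kept in 1 of 6 fits, that without week 2 replicate 2 (−2.03 to −2.34, adjusted p 0.046 to 0.14), and the week 3 call in 3 of 6, being lost without control replicate 1, control replicate 2 or week 3 replicate 1 (−1.51 to −1.92, adjusted p 0.016 to 0.061).

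Kcnj8 encodes Kir6.1, the pore of the same channel, and is the neighbour of Abcc9 on mouse chromosome 6, 16247 bases away in the RefSeq annotation. Its only probe set read 8.00, 8.78 and 8.62 in control, 7.33, 7.54 and 7.78 at week 1, 7.51, 7.12 and 6.74 at week 2, and 7.19, 8.45 and 7.26 at week 3. Weeks 1 and 2 lay below control, and 1 array of week 3 lay within it. Only 3 of the 12 arrays were above the median signal for Kcnj8, and whether the rest were above background was not tested. The differences of −0.91, −1.34 and −0.83 (SE 0.22 to 0.36) did not pass the test, with adjusted p from 0.14 to 0.26. Kcnj11 and Abcc8, which encode the pore and regulatory subunits of the channel in other tissues, differed from control by −0.03 to −0.20 and by 0.34 to 0.39 over the 3 weeks, also not past the test.

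Pdgfrb, the receptor by which pericytes follow endothelial Pdgfb and the gene of the sorted-out surface protein CD140b, was lowest at week 1. Its log2 signal was 10.47, 10.19 and 10.13 in control, 8.19, 8.69 and 8.89 at week 1, 9.35, 9.49 and 8.60 at week 2, and 9.48, 8.92 and 9.66 at week 3. All 9 arrays from metastatic lungs lay below control, and week 3 lay above week 1. The differences were −1.67 at week 1 (SE 0.20, adjusted p = 0.053), −1.12 at week 2 (SE 0.24, adjusted p = 0.17) and −0.91 at week 3 (SE 0.20, adjusted p = 0.057), none past the test. Its second probe set gave −0.69, −0.38 and −0.48. Pdgfrb was thus above the median signal on all 12 arrays although the sort was gated against its protein, and how far the gate bears on these values was not tested.

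Cspg4, Notch3 and Rgs5 gave smaller differences from control on their brightest probe sets than Abcc9, Kcnj8 and Pdgfrb did. Cspg4, the proteoglycan NG2 on the surface of pericytes and smooth muscle, read 9.00, 8.98 and 8.68 in control, 8.56, 8.02 and 7.90 at week 1, 8.80, 8.86 and 9.10 at week 2, and 8.70, 8.73 and 8.48 at week 3. It lay below control at week 1 only (−0.73, SE 0.20, adjusted p = 0.27), with differences of 0.03 and −0.25 after that, while its second probe set gave −0.65, −0.43 and −0.64, none past the test. Notch3, the Notch receptor of mural cells that maintains arterial smooth muscle, differed from control by −0.20, −0.22 and −0.28 on its brighter probe set, at 8.26 to 8.68 in control and 8.10 to 8.75 in the 9 other arrays, not past the test. Its dimmer probe set, below the median signal on all arrays, fell by 0.61 at week 3 (SE 0.11, adjusted p = 0.033).

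Rgs5, a regulator of G-protein signalling widely used as a pericyte marker, was the only one of the 10 genes above control at week 3. Its log2 signal was 8.68, 9.50 and 9.46 in control, 9.36, 8.85 and 9.06 at week 1, 9.96, 9.22 and 8.64 at week 2, and 10.25, 9.58 and 9.58 at week 3. The week 3 arrays lay above control by a mean of 0.59 (SE 0.28, adjusted p = 0.28), with the nearest arrays 9.50 and 9.58. Its second probe set read 7.96, 8.15 and 7.95 in control and 9.15, 8.78 and 8.68 at week 3, and rose by 0.85 (SE 0.15, adjusted p = 0.027). The 2 dimmest probe sets of Rgs5 differed from control by 0.11 and −0.35 at that stage, not past the test.

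**Figure D2:**
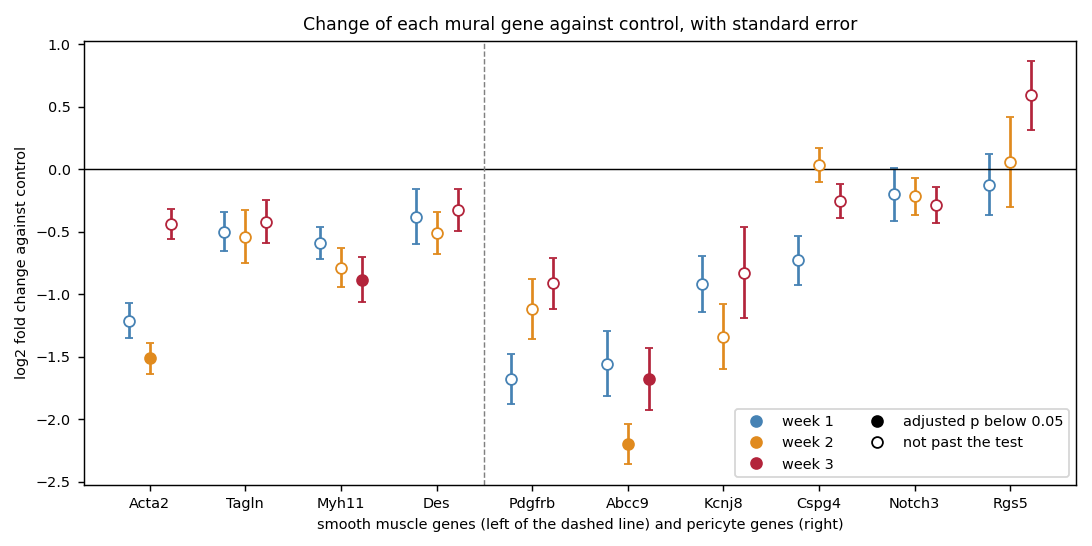
Log2 fold change against control (vertical axis) of each mural gene (horizontal axis) at weeks 1, 2 and 3; bars are limma's standard errors, and filled points passed the test. Filled points are Acta2 and Abcc9 at week 2 and Myh11 and Abcc9 at week 3; Rgs5 at week 3 (0.59) is above 0.

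Counted over every probe set of the 10 genes, 22 in all, the direction was lower in 20 at week 1, 18 at week 2 and 19 at week 3. Among all 45037 probe sets, 19634, 20117 and 21282 were lower. Of the 22, 0 passed limma's test at week 1, 3 at week 2 (1 of Acta2 and 2 of Abcc9) and 5 at week 3 (3 of Abcc9, 1 of Myh11 and 1 of Notch3), where 0.0311%, 0.102% and 2.33% of all probe sets were called lower. The 1 probe set called higher was that of Rgs5 at week 3, against 1.95% of all probe sets. Probe sets of a gene measure the same transcripts on the same arrays and are not independent.

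**Figure D3:**
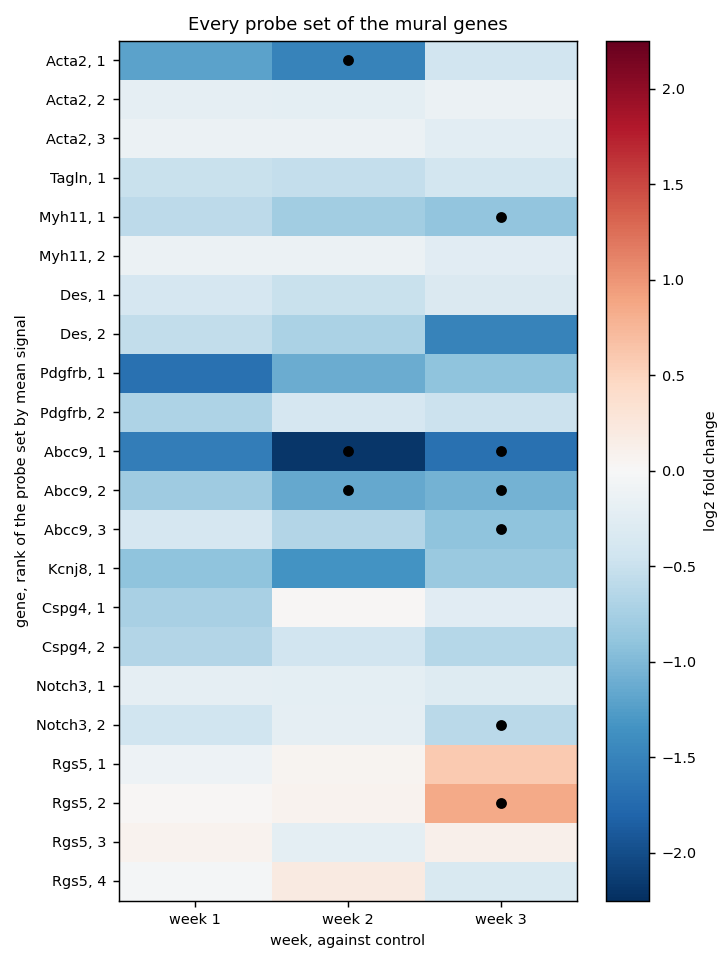
Log2 fold change against control (colour) at weeks 1, 2 and 3 (columns) for all 22 probe sets of the mural genes (rows, ranked within a gene by mean signal); dots mark an adjusted p below 0.05. Abcc9 is lower in all 3 of its probe sets, and Rgs5 is higher at week 3 in its 2 brightest.

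Set side by side, the smooth muscle and pericyte genes were lower by amounts whose difference overlapped that in control arrays at each week. The median log2 fold change was −0.54 for the 4 smooth muscle genes and −0.82 for the 6 pericyte genes at week 1, −0.66 and −0.67 at week 2, and −0.43 and −0.55 at week 3, where the medians over all genes were 0.05, 0.03 and 0.03. The mean over pericyte genes minus the mean over smooth muscle genes, each relative to control, was −0.20 ± 0.15 at week 1, 0.04 ± 0.34 at week 2 and −0.04 ± 0.05 at week 3 (SD, n = 3 arrays), beside 0.00 ± 0.12 in control. Without Rgs5 it was −0.35 ± 0.12, −0.13 ± 0.25 and −0.27 ± 0.13. The week 1 and week 3 arrays then lay below 0 in each case, −0.25 to −0.48 and −0.20 to −0.42, and the control arrays spanned −0.19 to 0.18. Removing Rgs5 followed from its values, so these figures describe the arrays and carry no test.

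Within groups, the genes of a cell type were related weakly from array to array. Correlating deviations from the group means over the 12 arrays gave a median r of 0.20 over the 6 pairs of smooth muscle genes, of which 5 were positive and Acta2 with Tagln was highest at 0.53. Over the 15 pericyte pairs, the median was −0.26 with 4 positive, from −0.66 for Cspg4 with Pdgfrb to 0.54 for Abcc9 with Pdgfrb. Over the 24 pairs of a smooth muscle with a pericyte gene it was −0.05, with 11 positive. All genes on an array share its RNA and its normalization, so these values are a description of the arrays.

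Other genes of the contractile apparatus give context to Acta2. Of 15 further smooth muscle genes measured, 0 passed limma's test at week 1, where 13 were below control, 1 fell at week 2 and 3 fell at week 3, and 0 rose. The one at week 2 was Myl9, the regulatory light chain of smooth muscle myosin, at 10.39, 10.58 and 10.59 in control, 9.19, 9.81 and 9.26 at week 1, 9.38, 9.42 and 9.44 at week 2, and 10.38, 9.98 and 9.86 at week 3. Its differences from control were −1.10, −1.11 (adjusted p = 0.023) and −0.45, and that from week 2 to week 3 was 0.66 (adjusted p = 0.082). Actg2, the second smooth muscle actin, gave −1.27, −1.44 and −0.62, and Tpm2, a tropomyosin that lies along the actin filament, −1.19, −1.24 and −0.67, none past the test. These were singled out for their large differences, and other genes of the list lay near or above control, with Nrip2 at 0.28 and 0.33 and Smtn at −0.10 and 0.02 at weeks 1 and 2. From week 2 to week 3 the median over the 15 genes was −0.06, with 9 of them below 0.

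The 3 further smooth muscle genes called at week 3 kept a lower level at that stage. Itga8, an integrin α chain that lung fibroblasts also express, read 11.24, 11.04 and 11.15 in control and 8.94, 8.87 and 8.76 at week 3, and fell by 2.29 (SE 0.11, adjusted p = 4.7e-04). Ppp1r14a, the CPI-17 inhibitor of myosin phosphatase, fell by 1.69 (adjusted p = 0.0059), and Ppp1r12b, a regulatory subunit of myosin phosphatase, by 0.99 (adjusted p = 0.040). All 3 were also below control at weeks 1 and 2, at −1.71 and −1.57, −1.47 and −1.15, and −0.80 and −0.52, without passing the test. Cnn1 (calponin) and the cofactor Myocd (myocardin) differed from control by −0.30 to −0.70 and −0.29 to −0.42, not past the test. The median over the 15 genes was −0.52, −0.52 and −0.45.

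Of 20 further pericyte genes, 0 passed limma's test at weeks 1 and 2, and 6 fell and 0 rose at week 3, with medians of −0.33, −0.28 and −0.46. Gucy1a1 and Gucy1b1, the subunits of the nitric oxide receptor soluble guanylate cyclase, fell by 1.31 (SE 0.13, adjusted p = 0.0049) and 1.36 (SE 0.15, adjusted p = 0.0057). Agtr1a, the angiotensin II receptor, fell by 1.27 (adjusted p = 0.016), Postn, the matrix protein periostin, by 1.07 (adjusted p = 0.012), Higd1b by 0.78 (adjusted p = 0.028) and Pdzd2 by 0.53 (adjusted p = 0.038). Gucy1a1 read 11.49, 11.39 and 11.15 in control and 10.19, 9.92 and 9.97 at week 3, without overlap. Steap4 and Mcam lay above control at week 3, by 0.49 (adjusted p = 0.067) and 0.38 (adjusted p = 0.13).

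**Figure D4:**
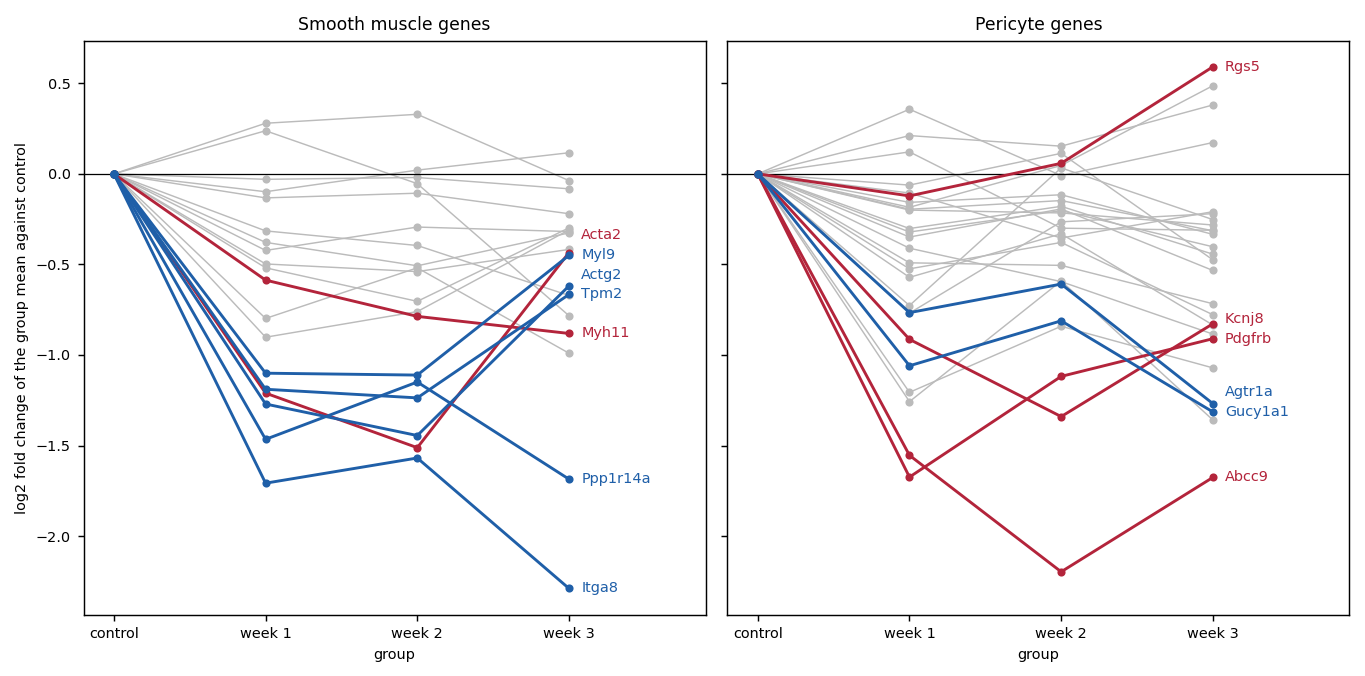
Log2 fold change of the group mean against control (vertical axis) over the groups (horizontal axis) for all smooth muscle genes (left) and pericyte genes (right); red lines are named genes among the 10 described, blue lines other named genes, grey lines the rest. Acta2, Myl9, Actg2 and Tpm2 lie at −1.10 to −1.51 at weeks 1 and 2 and −0.44 to −0.67 at week 3, and Itga8 and Ppp1r14a at −2.29 and −1.69 at week 3.

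Genes that recruit mural cells or act downstream in them were mostly near control. Of 24 measured, 0 passed limma's test at weeks 1 and 2, and Hes1 and Angpt1 fell at week 3. Angpt1, the ligand that mural and other stromal cells send to the endothelial receptor Tek, differed by −1.35 (adjusted p = 0.064), −0.89 and −1.38 (adjusted p = 0.044) over the 3 weeks. Hes1, a Notch target, fell by 0.67 at week 3 (adjusted p = 0.029). Srf, the gene of serum response factor, gave −0.38, −0.36 and −0.51 (adjusted p = 0.067 at week 3), and −0.16 from week 2 to week 3, not past the test. Heyl, the Notch target most typical of mural cells, gave −1.25, −0.91 and −0.49, and the endothelial ligand Pdgfb 0.09, 0.03 and 0.42 (adjusted p = 0.093), not past the test. The Notch ligands Jag1 and Dll4 differed from control by −0.27 to 0.12 and by 0.10 to 0.26.

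Between metastatic stages, 0 of the 10 genes passed limma's test from week 1 to week 2, as did 0% of all genes, with an unadjusted p below 0.05 for Abcc9 (lower) and Cspg4 (higher) and for 559 genes lower and 633 higher in all. Week 3 against week 1 also gave 0 of 10, against 0.841% of all genes, with an unadjusted p below 0.05 for 4 (Acta2, Cspg4, Pdgfrb and Rgs5), all higher at week 3, as were 7.05% of all genes at that threshold. Acta2 lay 0.78 higher (SE 0.14, adjusted p = 0.073), Pdgfrb 0.76 (SE 0.25, adjusted p = 0.25) and Rgs5 0.71 (SE 0.22, adjusted p = 0.24).

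Markers of other cell types moved beside the mural genes. On average over its genes, the smooth muscle set differed from control by −0.67, −0.84 and −0.51 at weeks 1, 2 and 3, and the pericyte set by −0.87, −0.80 and −0.56. A list of 14 fibroblast genes differed by −0.65, −0.92 and −0.75, and 6 alveolar epithelial genes by −1.03, −0.79 and −1.02. On single arrays, the fibroblast list ranged over −0.69 to −0.62, −1.12 to −0.78 and −0.82 to −0.61, and the epithelial list over −1.51 to −0.66, −1.25 to −0.20 and −1.27 to −0.72, while control arrays were within −0.09 and 0.05. Of these, Col1a1 and Dcn fell at week 2, and 6 of 14 fibroblast genes (Pdgfra, Dcn, Tcf21, Dpt, Inmt and Gpc3) and 4 of 6 epithelial genes (Sftpc, Sftpa1, Ager and Aqp5) at week 3. The part that loss of such cells from the sort plays in the mural values was not tested. A list of 11 cardiac muscle genes, which mark the muscle sleeves of pulmonary veins, had mean shifts of −0.10, −0.21 and −0.25. Actc1 was the one called (−1.91 at week 3, adjusted p = 0.028). The mean shifts of 6 alveolar myofibroblast genes were −0.45, −0.59 and −0.42, with Hhip (−1.71) and Lgr6 (−0.68) called at week 3. Single genes weigh on these means. The medians were −0.07, −0.04 and −0.08 for the cardiac list and −0.33, −0.59 and −0.17 for the myofibroblast list. At week 3, 7 of the 11 and 3 of the 6 genes were below control, and Myl4 (0.32) and Wnt5a (0.16) were above it.

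At the stage where Acta2 rose, some markers of fibroblasts and leukocytes rose too. From week 2 to week 3, the collagen gene Col1a1 rose by 1.29 (adjusted p = 0.018) and Mfap5, of adventitial fibroblasts, by 1.30 (adjusted p = 0.021), 2 of 14 fibroblast genes, while Pdgfra differed by −0.65 and Tcf21 by −0.78, not past the test. Of 7 leukocyte genes, Fcer1g rose by 0.91 (adjusted p = 0.017), and Cd68, the 1 below 0, differed by −0.36, not past the test. The list's mean shift from control went from −0.61 at week 2 (−0.92 to −0.30) to −0.01 at week 3 (−0.10 to 0.05). That week 3 mean joins genes of both directions: Fcer1g was called higher than control (0.60, adjusted p = 0.029) and Cd68 lower (−1.18, adjusted p = 0.012). From week 1 to week 3, Laptm5 was the leukocyte gene called, with a rise of 1.44 (adjusted p = 0.043). The part of fibroblasts or leukocytes in the Acta2 values was not tested.

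**Figure D5:**
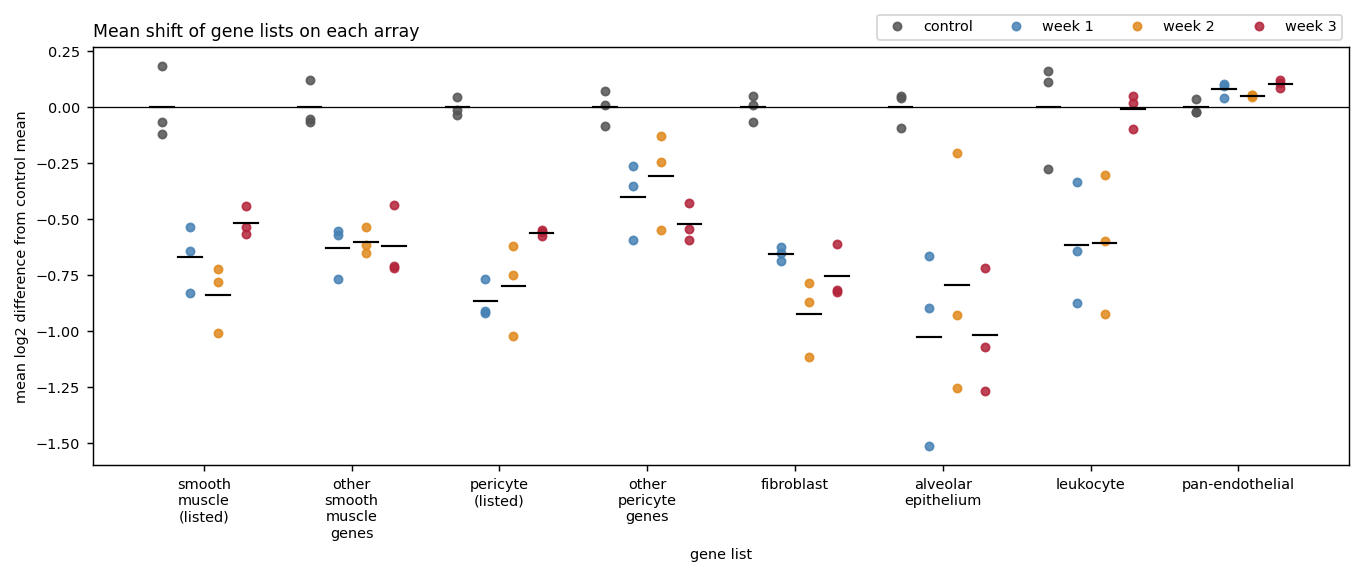
Mean log2 difference from the control mean (vertical axis) over the genes of each list (horizontal axis), for each array (points, coloured by group) with group means (bars). The smooth muscle, pericyte, fibroblast and alveolar epithelium lists lie below control on all arrays from metastatic lungs, the leukocyte list at weeks 1 and 2, and the pan-endothelial list within 0.12 of control.

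The genes whose log2 signal over the 12 arrays was most like the mean of the smooth muscle genes (Pearson's r, as a measure of likeness without a test) were Twsg1, a BMP-binding protein (r = 0.95), Tpm2 (r = 0.92), Ikzf4 and Cdh11, a mesenchymal cadherin (both r = 0.90). Those most like the pericyte mean were Pcolce, which assists collagen processing (r = 0.94), Chpf, Nupr1 (both r = 0.93) and Serping1 (r = 0.92). Among the mural genes themselves, Pdgfrb was closest to the pericyte mean of which it is a part (r = 0.92), and Rgs5 was far from both (r = 0.18 with pericyte genes, −0.13 with smooth muscle genes), as was Cspg4 from the smooth muscle mean (r = 0.21). For Acta2, taken up after its values were seen, the list was led by Mpeg1, a macrophage gene (r = 0.95), Pdzrn3, Gsto1 (both r = 0.94) and the receptor Axl (r = 0.93), with Tpm2, Actg2 and Myl9 among the first 10 (r = 0.91, 0.91 and 0.90). The 12 arrays fall into 4 groups, so a shared difference between control and metastatic lungs gives a high r on its own.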

How the data were processed

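Log2 signals of 12 Affymetrix Mouse Genome 430 2.0 arrays (3 per group, 500 pg total RNA each, 3′ IVT Pico amplification) were deposited by the authors after RMA normalization in Chipster 3.8.0, and the deposited log2 values were used as given. Array medians were 8.13. Of 45101 probe sets, 64 array controls were left out, 45037 were tested, 34945 had 1 gene symbol in the platform annotation, 932 several and 9160 none. Each gene was read by its single-symbol probe set of highest mean. Each pair of groups was compared with limma 3.58.1 (R 4.3.3; lmFit, eBayes, Benjamini-Hochberg over all tested probe sets, called at an adjusted p of 0.05), after a check on simulated data. All mural genes with every probe set were named, and from each gene list every called gene plus some of those with the largest change at week 3, with others named after their values were seen. The genes and lists were chosen with earlier results of these data known. Replicate numbers did not pair the arrays. Comparisons with control share its 3 arrays. Alternatives covered the samples in the fit, replicate block, normalization, low-value filter, probe set choice, variance prior, array weights and leaving out each array. Sequences are RefSeq's on GRCm38.p6. The number of arrays limits the precision.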

Additional observations from a re-analysis of the deposited data

Results flagged for a closer look

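The change of Acta2 from control differed between week 2 and week 3, by 1.08 on the log2 scale in limma's direct test of the 2 stages (SE 0.13, adjusted p = 0.019), with all 3 week 3 arrays above all 3 week 2 arrays. It rests on the brightest of 3 probe sets of Acta2, and no other of the 10 mural genes passed a test between stages.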

How the results depend on the processing

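With 3 arrays per group, calls near the threshold moved easily, and no mural gene that was called under any setting had a sign opposite to its reported one. At week 1, where 0 mural genes were called, 3 were called with all groups in one fit, 3 with the low-value filter, 3 with a trended and robust variance, 2 with array weights and 2 with the mean of a gene's probe sets (Acta2, Abcc9 and Pdgfrb, without Abcc9 under array weights and without Acta2 under the mean). Abcc9 passes the low-value filter through its control arrays alone, so its call there is no independent support. The shares of all genes called under these settings are not given here, so the counts show nothing particular to mural genes. The replicate numbers did not pair the arrays (r of same-numbered arrays −0.16 to 0.08, and 9 of 36 matches of an array to another group's arrays were best with its own number). With the replicate block, 0 mural genes were called at week 2, at week 3 and from week 2 to week 3. With single arrays left out, the counts ranged from 0 to 2 at week 2, 0 to 1 at week 3 and 0 to 1 from week 2 to week 3. Without probe sets of shared-transcript suffixes, 0 were called at week 2 and 0 from week 2 to week 3, and the week 2 medians became −0.52 (smooth muscle) and −0.29 (pericyte), and the pericyte median from week 2 to week 3 −0.011. With the mean of probe sets, 0 were called from week 2 to week 3, the pericyte median at week 2 was −0.48, the medians from week 2 to week 3 were 0.0092 (smooth muscle) and 0.085 (pericyte), and the smooth muscle median from week 1 to week 3 was −0.063. Each gene's second probe set, an alternative chosen after seeing the data, gave 1 call at week 2 and 0 from week 2 to week 3, and smooth muscle and pericyte medians of −0.35 and −0.67 at week 1, −0.38 and −0.40 at week 2, and −0.0063 and −0.011 from week 2 to week 3; from week 1 the smooth muscle median was −0.029 at week 2 and the pericyte median 0.049 at week 3. The pericyte median from week 2 to week 3 ranged from 0.093 to 0.44 with single arrays left out. Week 3 against week 1 gave 1 call (Acta2) with all groups in one fit, with the low-value filter and with a trended and robust variance. Quantile normalization again and centring on medians changed no count by over 1.5 times. Of 600 single-gene values under alternatives other than leaving out arrays, 551 kept direction and call, 23 gained and 13 lost a call, and 13 uncalled values changed sign; with arrays left out, these were 314, 0, 24 and 22 of 360.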
